A study of Mus musculus with 15 samples.

Results

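The adult unexpanded stage of mouse cumulus cells was set against the stages on either side of it, to find transcripts that peaked or dipped there. Cumulus cells, the granulosa cells that surround the oocyte, had been taken from B6CBAF1/J mice at 3 stages, with 5 pooled samples and 1 one-colour microarray per sample at each stage. NC1 samples came from unexpanded complexes punctured out of large follicles of juvenile females at 3 weeks of age, whose prophase I oocytes are labelled developmentally incompetent. C1 samples, the 5 arrays of interest among the 15, came from unexpanded complexes punctured in the same way from adult females at 8 weeks of age, whose prophase I oocytes are labelled competent. C2 samples came from expanded complexes flushed from the oviducts of superovulated adults at 8 weeks of age (pregnant mare serum gonadotrophin, then human chorionic gonadotrophin), dispersed with hyaluronidase, with metaphase II oocytes. Each sample pooled the cells of several mice. NC1 and C1 therefore differ in age, and C1 and C2 differ in hormone treatment, site of collection and enzyme as well as in meiotic stage, and these cannot be told apart. No gene was altered in any group.

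Cumulus cells feed the oocyte through gap junctions and supply it with cholesterol and other metabolites that it makes poorly by itself. Under follicle-stimulating hormone they keep a granulosa programme of oestrogen synthesis and proliferation. After the ovulatory surge they stop dividing, secrete the hyaluronan matrix of expansion and turn towards progesterone synthesis, the path that leads granulosa cells to luteal cells.

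Levels are given as log2 intensity relative to the array's own median over 17342 tested probes, those with a present flag at all 3 stages, so that 0 is the array median and 1 unit is a doubling. A probe's level can be compared between arrays but not with another probe's level. Differences carry the standard error (SE) of the limma fit, n was 5 arrays per stage throughout, and adjusted p refers to Benjamini-Hochberg adjustment over all 17342 probes with 0.01 as the threshold. Probes well above background numbered 19167 to 24493 on the C1 arrays, 20002 to 22298 on NC1 and 18366 to 22117 on C2. C1 replicate 4 had both the most probes above background and the lowest median correlation with the other C1 arrays (0.982). The granulosa markers Amhr2, Fshr, Foxl2, Inha, Esr2 and Nr5a2 were above background on every array. In such bulk samples, fewer cells of a type and less RNA per cell cannot be told apart.

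The C1 mean lay above both other means for 3094 probes (17.8% of those tested) and below both for 4386 (25.3%). The contrast of C1 with the average of NC1 and C2 passed the threshold for 3856 probes (22.2%), with C1 higher for 1724 (9.94%) and lower for 2132 (12.3%). Both conditions together gave 803 contrast peaks (4.63%, 703 named genes) and 1133 contrast troughs (6.53%, 982 named genes). In most of these, C1 stood apart from C2 and lay close to NC1. Of the 803 contrast peaks, 707 passed the threshold against C2 alone, 39 against NC1 alone, 11 against neither and 46 against both, and in 650 (80.9%) the smaller of the differences from the other stages was under 0.5 log2 units. Of the 1133 contrast troughs, 1083 passed against C2 alone, 9 against NC1 alone, 8 against neither and 33 against both. The share of peaks among these calls was 41.5%, 54.8% when arrays were scaled on their 75th percentile, and 87.9% when they were scaled on spike-in RNA.

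Counting only probes for which C1 differed from NC1 and from C2 in the same direction, each past the threshold (two-step calls), left 46 peak probes (0.265%, 41 genes) and 33 trough probes (0.190%, 29 named genes and 2 probes without a gene name). For comparison, C1 alone against NC1 gave 440 called probes (2.54%) with 306 higher (1.76%) and 134 lower (0.773%), and C1 against C2 gave 8250 (47.6%). Both differences contain the same C1 arrays, so an array that stands apart moves both. The smaller difference of the two-step peaks had a median of 1.29 log2 units (range 0.55 to 3.44), and it was at least 1 in 34 of the 46. That of the troughs had a median of 0.82 (range 0.50 to 1.39) and was at least 1 in 8 of the 33. The same quantity had a median of 0.10 over all tested probes whose C1 mean lay above or below both others. All 5 C1 arrays lay above all 10 others in 32 of the 46 peaks and below all 10 others in 31 of the 33 troughs. Over all tested probes these counts were 67 (0.386%) and 97 (0.559%). The calls were selected on these same arrays, so the lack of overlap was largely fixed by that selection.

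Over all tested probes, the levels at C2 and NC1 were called different for 8929 (51.5%). They were not called different for 32 of the 46 peaks. C2 remained above NC1 in 9 peaks and lay below it in 5. Among the troughs the levels at NC1 and C2 were not called different for 18, and C2 lay above NC1 in 14 and below it in 1. The median SD over the C1 arrays was 0.48 for the peaks and 0.24 for the troughs, against 0.23 for all tested probes. Scaling the arrays on E1A spike-in RNA, a choice made after the data were seen, raised the median difference of C1 over all probes from -0.03 to 0.12 against NC1 and from -0.02 to 0.13 against C2. Among the two-step calls the share of peaks was 58.2% as tested here, 67.9% with the 75th percentile and 95.5% with spike-in RNA. Under spike-in scaling 42 probes were two-step peaks and 2 were two-step troughs. Rufy4 and Nell1 kept their call, while the other troughs missed the threshold on at least 1 side with differences that moved only by the shift of all probes. This scaling also changes the spread between arrays, on which the SE rests. The part of the shift and of the spread in the lost calls was not tested.

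**Figure D1:**
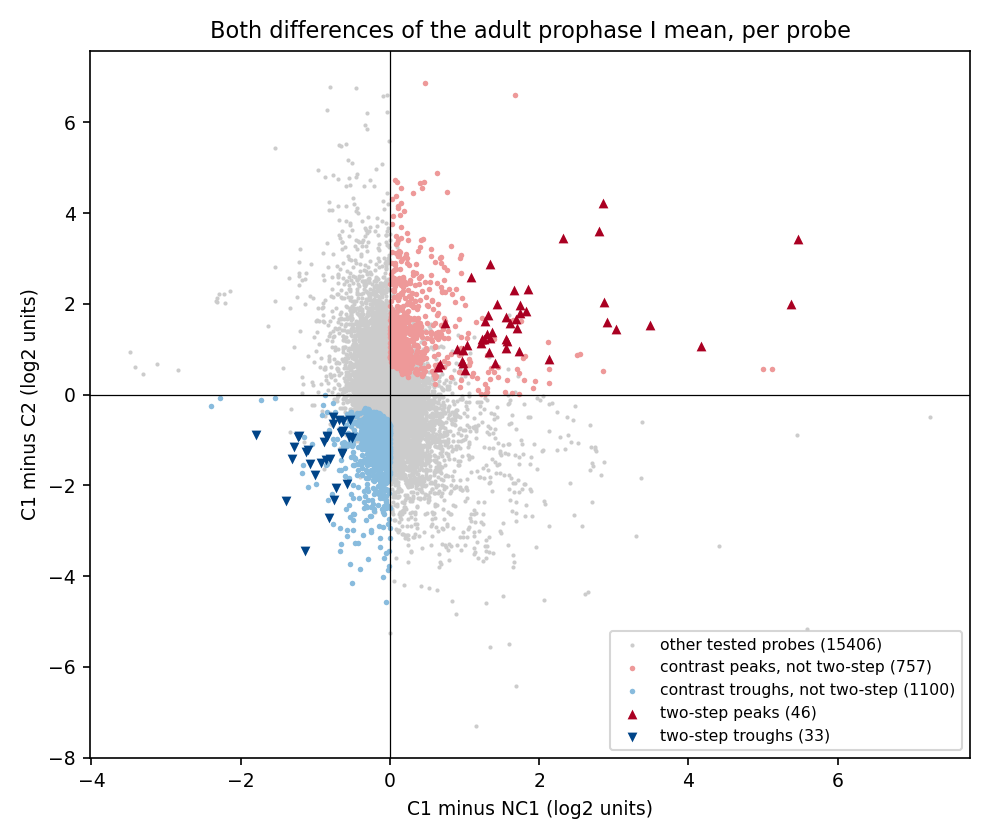
Each point is 1 of the 17342 tested probes, with the difference of the C1 mean from NC1 (x axis) and from C2 (y axis) in log2 units. The 803 contrast peaks fill the upper right quadrant close to the y axis and the 1133 contrast troughs the lower left, while the 46 two-step peaks and 33 two-step troughs stand away from both axes.

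Bhmt showed the largest peak by the smaller difference. It encodes betaine-homocysteine methyltransferase, which uses betaine to turn homocysteine into methionine and is best known from liver. Its level was -3.82, -3.39, -3.16, -3.10 and -3.34 on the NC1 arrays, 2.96, 2.93, 2.19, 0.47 and 1.97 on the C1 arrays, and -0.44, -1.25, -0.86, -1.85 and -2.27 on the C2 arrays. The stages did not overlap, and C1 replicate 4 was the lowest of its stage. C1 exceeded NC1 by 5.46 ± 0.41 (44.1-fold, adjusted p = 3.69e-07, limma) and C2 by 3.44 (10.8-fold, adjusted p = 2.08e-06, limma). C2 in turn exceeded NC1 by 2.03 (adjusted p = 0.000405, limma), so the transcript did not return to its juvenile level. The other Bhmt probes, which lacked the present flag at 1 or more stages and were not tested, had mean levels of -5.22 and -4.19 at NC1, -0.26 and 2.08 at C1, and -3.54 and -1.47 at C2.

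Plin4, a perilipin that coats lipid droplets and is abundant in fat, rose nearly as much and fell less. Its level was -1.69, -2.12, -3.17, -3.43 and -3.03 at NC1, 3.56, 3.85, 0.34, 2.31 and 3.35 at C1, and 1.00, 1.28, 1.39, -0.20 and 0.01 at C2. C1 and NC1 did not overlap, but C1 replicate 3 lay below 3 of the C2 arrays. C1 exceeded NC1 by 5.37 ± 0.56 (adjusted p = 1.53e-05, limma) and C2 by 1.99 ± 0.56 (adjusted p = 0.00627, limma). The second difference missed the threshold without C1 replicate 1, 2 or 5 or C2 replicate 4 or 5, with an adjusted p of up to 0.0204 over all alternatives, and on 1 of the 4 slides it was -0.66. All other differences of the 10 leading peaks and 10 leading troughs, and those of Prlr and Sc5d, had 1 direction on all 4 slides. These genes were selected on the same arrays, so that agreement was largely fixed by the selection and is no separate support.

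Receptors for circulating hormones were among the peaks. Oxtr, the oxytocin receptor, stood at -0.41, -0.82, 0.63, 0.33 and 0.07 at NC1, 3.74, 3.15, 1.82, 2.17 and 3.23 at C1, and 1.62, 0.72, 0.59, 0.59 and 0.40 at C2. The stages C1 and C2 did not overlap, with C2 replicate 1 and C1 replicate 3 the nearest arrays. The C1 mean exceeded NC1 by 2.86 ± 0.35 (7.28-fold, adjusted p = 8.4e-05) and C2 by 2.04 (4.11-fold, adjusted p = 0.000106). Prlr, the prolactin receptor through which the rodent corpus luteum is maintained, stood at -3.30, -3.44, -3.04, -3.53 and -3.25 at NC1, -0.04, -0.06, -1.02, -0.93 and 0.06 at C1, and -1.81, -1.98, -1.83, -1.95 and -2.42 at C2. Its C1 excess was 2.91 ± 0.21 over NC1 (adjusted p = 1.81e-07) and 1.60 over C2 (adjusted p = 4.63e-06). A second Prlr probe gave differences of 3.03 and 1.45. Adora1, a receptor for adenosine, exceeded NC1 by 1.44 and C2 by 2.00.

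Among secreted and membrane proteins, Cst8, a cystatin-related protein described in the epididymis, stood at 0.49, 0.47, 1.35, 0.67 and 0.91 at NC1, 4.41, 3.88, 2.75, 3.13 and 4.03 at C1, and 0.22, -0.32, -0.57, -1.01 and -1.26 at C2. The C1 excess was 2.86 ± 0.31 over NC1 (adjusted p = 2.4e-05) and 4.23 over C2 (adjusted p = 8.53e-09), and C2 minus NC1 was -1.37 (adjusted p = 0.00116). Bace2, an aspartyl protease, stood at -0.40, -0.86, -1.58, -1.56 and -1.89 at NC1, 2.71, 1.69, -0.12, 1.48 and 2.00 at C1, and -1.51, -2.23, -2.85, -2.07 and -1.60 at C2. C1 replicate 3 was again the lowest of its stage, though still above every array of the other stages. The C1 excess of Bace2 was 2.81 ± 0.42 over NC1 (adjusted p = 0.000544) and 3.60 over C2 (adjusted p = 1.75e-06). Wnt5a, a ligand of the non-canonical Wnt pathway, was at -3.47 ± 0.37 (SD) at NC1, -1.73 ± 0.59 at C1 and -3.53 ± 0.23 at C2, so that its levels on either side of C1 were not called different (adjusted p = 0.835). The chemokine Cxcl12 exceeded NC1 by 1.34 and C2 by 2.89. Dsc2, a desmosomal cadherin, exceeded NC1 by 1.67 and C2 by 2.31.

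Enzymes of glycan and small-molecule metabolism formed another part of the peaks. Galnt18, of the family that starts mucin-type O-glycans, was at -3.08 ± 0.52 (SD) at NC1, -0.76 ± 0.60 at C1 and -4.21 ± 0.23 at C2, and at C2 it was above background on 4 of 5 arrays. A second, dim Galnt18 probe, above background on 0, 2 and 1 arrays at NC1, C1 and C2, showed no peak, with means of -5.14, -5.05 and -4.82. The sulfotransferases Chst1 and Chst10 exceeded NC1 by 1.56 and 0.73 and C2 by 1.71 and 1.58. The glutathione transferases Gstm7 and Gstm6, neighbouring paralogues whose probes may cross-hybridise, exceeded NC1 by 1.28 and 1.41 and C2 by 1.62 and 0.70. Ptgds, which makes prostaglandin D2, exceeded NC1 by 1.09 and C2 by 2.59. Pcx, the pyruvate carboxylase that refills the citric acid cycle, had the smallest qualifying difference of the peaks, 0.55 over C2, beside 1.01 over NC1.

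Transcription regulators were few. Atf3, a stress-inducible bZIP factor, stood at -1.96, -1.89, -2.69, -1.53 and -1.78 at NC1, 1.23, -0.79, 0.05, -0.61 and -0.57 at C1, and -1.82, -2.54, -2.79, -1.59 and -1.18 at C2. It rose by 1.83 ± 0.37 over NC1 (adjusted p = 0.00649) and lay 1.84 above C2 (adjusted p = 0.000405), with C1 replicate 1 well above the others. The first difference lost its call without C1 replicate 1 or 3 or without NC1 replicate 1, 2, 3 or 5, with an adjusted p of up to 0.0292. It also lost its call in the unmoderated model and when fitted on its own 2 stages. Cited1, a transcriptional coactivator, exceeded NC1 by 1.30 and C2 by 1.33. Tmem178, a transmembrane protein, was at -2.58 ± 0.50 (SD) at NC1, -0.84 ± 0.25 at C1 and -2.82 ± 0.56 at C2. AI314604, a transcript without a standard name, exceeded NC1 by 1.85 and C2 by 2.34.

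Several peaks encode proteins best described in neurons or as parts of the cytoskeleton. Mapt, the microtubule-binding protein tau, exceeded NC1 by 1.23 and 1.55 and C2 by 1.23 and 1.22 at its probes. Dpysl4, of the collapsin response mediators, exceeded NC1 by 1.34 and 1.26 and C2 by 1.26 and 1.23. Myo7a, an unconventional myosin, exceeded NC1 by 2.13 and C2 by 0.78, and C2 was itself above NC1 by 1.34 (adjusted p = 0.000114). Plch2, a phospholipase C, and Ssu2 behaved likewise, with 3.49 and 4.17 over NC1 and 1.54 and 1.07 over C2. Some of these calls were fragile to the omission of 1 array: of 15 such fits, Myo7a was called in 2, Chst10 and the Mapt probe with 1.55 over NC1 in 3 each, and Ssu2, Cited1, Chst1 and Pcx in 9 each. These groups by role were formed after the values were known, and no enrichment was tested.

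**Figure D2:**
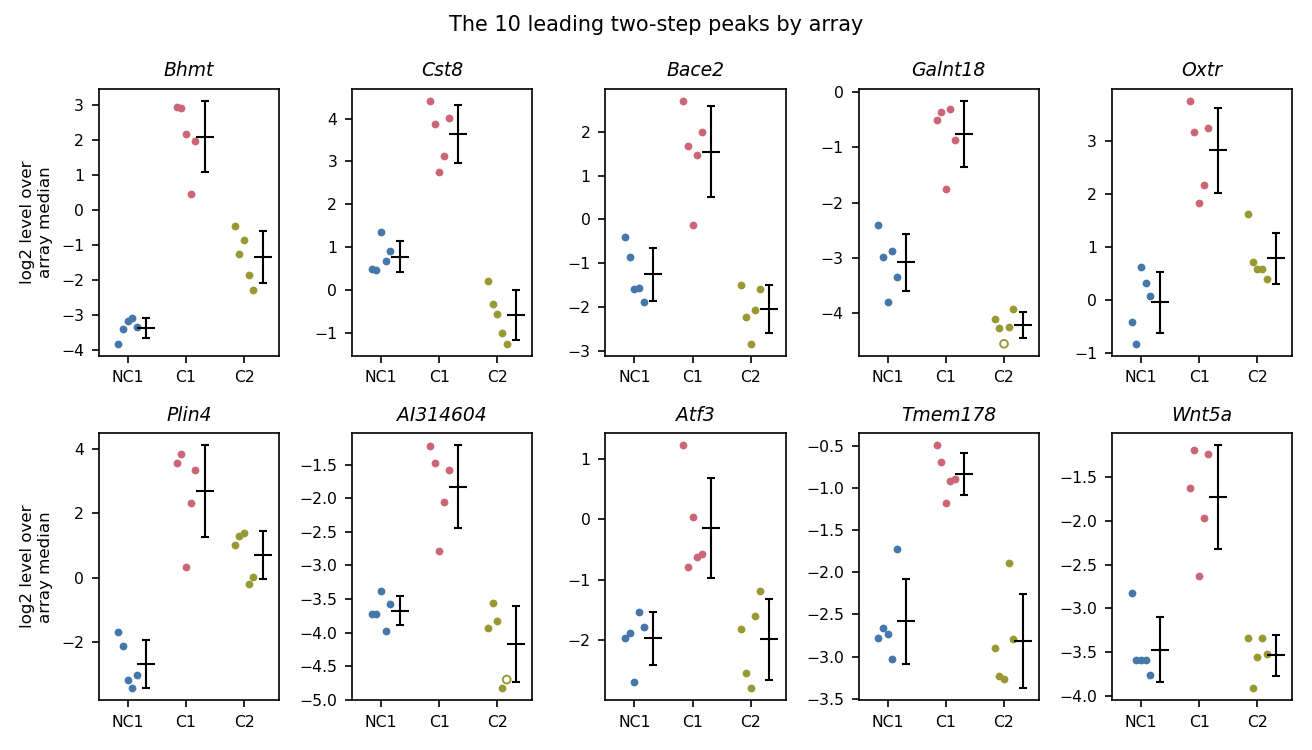
Level of the 10 leading two-step peaks on each array, as log2 intensity over the array median, by stage. Filled circles are arrays with the probe well above background, open circles are arrays without, and the black mark is the stage mean with its SD (n = 5). C1 arrays lie above all others in every panel but Plin4, where C1 replicate 3 (0.34) lies below 3 C2 arrays.

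Upstream sequences are shown for the leading peaks Bhmt and Cst8, for Plin4, also a peak, and for Rufy4, the leading trough. They allow comparison of peaks with each other and with a trough. The sequences are the 250 bases before the transcription start in RefSeq's GRCm38.p6 table, written 5′ to 3′ on the gene's strand. The search took 4 motifs: TGACGTCA (cAMP response element), TGANTCA (AP-1 element), the half-site of NR5A receptors (the family of steroidogenic factor 1, written AAGGTCA), each on both strands, and the TATA box (TATAAA) on the gene's strand. Capitals mark matches.

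Bhmt, chr13:93637759-93638008, minus strand: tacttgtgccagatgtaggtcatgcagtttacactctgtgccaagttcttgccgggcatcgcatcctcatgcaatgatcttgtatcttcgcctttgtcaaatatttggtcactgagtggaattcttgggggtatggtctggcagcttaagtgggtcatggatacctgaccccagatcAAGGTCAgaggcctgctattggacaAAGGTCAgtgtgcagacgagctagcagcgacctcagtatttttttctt
Cst8, chr2:148798589-148798838, plus strand: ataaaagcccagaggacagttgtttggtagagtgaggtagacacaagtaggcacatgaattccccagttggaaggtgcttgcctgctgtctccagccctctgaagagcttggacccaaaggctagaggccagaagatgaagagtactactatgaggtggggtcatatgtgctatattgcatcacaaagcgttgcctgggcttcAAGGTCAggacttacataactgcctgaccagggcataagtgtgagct
Plin4, chr17:56109783-56110032, minus strand: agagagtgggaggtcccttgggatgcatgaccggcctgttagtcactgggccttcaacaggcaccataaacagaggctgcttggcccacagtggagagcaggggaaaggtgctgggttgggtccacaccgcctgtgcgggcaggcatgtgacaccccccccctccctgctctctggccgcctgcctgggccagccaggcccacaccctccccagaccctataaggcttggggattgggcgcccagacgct
Rufy4, chr1:74125291-74125540, plus strand: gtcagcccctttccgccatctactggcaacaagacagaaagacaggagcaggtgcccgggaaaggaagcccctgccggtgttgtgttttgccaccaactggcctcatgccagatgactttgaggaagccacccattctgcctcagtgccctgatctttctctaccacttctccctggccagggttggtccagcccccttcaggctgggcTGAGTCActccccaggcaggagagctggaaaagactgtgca

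AAGGTCA lay 73 to 67 and again 48 to 42 bases before the Bhmt start, and 47 to 41 bases before the Cst8 start. It was found in 5 of the 28 peak genes with a promoter in the table (Bhmt, Cited1, Cst8, Prcd and Trim2) and in 0 of the 23 trough genes, while 4.08% of all 32851 promoters held it. TGANTCA was found in 5 of 28 peak genes, 4 of 23 trough genes and 6.75% of all promoters, and the Rufy4 match lay 41 to 35 bases before its start. TATAAA was found in 3 peak genes, 1 trough gene and 7.59% of all promoters. TGACGTCA was found in 0 member genes and 1.55% of all promoters. Genes with several starts had several chances to match, and a match is a run of letters, not a bound site. The starts of Tns1 and Rufy4, both troughs, lay 993 bases apart on opposite strands of chromosome 1, which was the closest pair among the 51 member genes with a listed start.

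Probes seen at C1 alone were rare. Of 39429 gene probes on the array, 2 were well above background on all 5 C1 arrays and on no other array, and both measure carboxylesterases, enzymes that hydrolyse esters and drugs in liver and intestine. Ces2a stood at -2.68, -1.36, -3.02, -1.27 and -0.48 on the C1 arrays and at -7.09 to -4.08 on the others, where it was not above background, which makes C1 at least 7.79-fold higher. Ces2c stood at -3.56, -2.22, -3.44, -2.22 and -1.47 at C1, at least 4.36-fold higher, but the other 2 Ces2c probes were above background on 0 arrays of any stage. On both, C1 replicate 5 was the highest and C1 replicates 1 and 3 the lowest. They are paralogues and may cross-hybridise. The bounds depend on the background correction: on the log2 scale they were 2.96 for Ces2a and 2.12 for Ces2c. With the normexp correction they fell to 1.84 and 1.51. No probe (0) was above background on all NC1 and C2 arrays and on no C1 array. Without C1 replicate 3 the C1-only count was 6, without C2 replicate 1 it was 4, and without C1 replicate 4 the count of probes missing at C1 alone was 2.

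Luteal cell markers were read in every array, since Prlr and Oxtr are also known from the corpus luteum. All 10 markers of the list were on the array, and all 10 were above background on every C1 array against 6 on every NC1 array. Their summed linear level, in units of the array median, was 106.8 to 166 at NC1, 189 to 252 at C1 and 327 to 428 at C2. Cyp11a1, which makes pregnenolone from cholesterol, was at -1.14 ± 0.43 (SD) at NC1, 4.32 ± 0.60 at C1 and 5.20 ± 0.40 at C2. Sfrp4, a Wnt antagonist, was at -2.93 ± 0.09, 4.30 ± 0.88 and 4.79 ± 0.13 in turn. Both thus rose by 5.46 and 7.24 between NC1 and C1 and did not fall to C2. Akr1c18, which inactivates progesterone, stood at 1.96, 1.44, 0.49, 1.30 and 4.42 at C1, between -4.32 to -3.07 at NC1 and 6.83 to 7.43 at C2.

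Lhcgr, the receptor for luteinising hormone, had a peak form. It was not above background on any NC1 array, stood at -0.66, -0.36, -1.98, -1.65 and -0.95 at C1, and at -3.12, -4.46, -4.27, -3.52 and -4.39 at C2, where 3 of 5 arrays were above background. C1 was at least 12.1-fold higher than NC1 and 7.12-fold higher than C2. Ptgfr, the receptor for prostaglandin F2 alpha, was likewise not above background at NC1, and stood at 0.51, 0.98, -0.71, 0.27 and 1.31 at C1 and at -1.34, -1.96, -1.76, -0.38 and -0.56 at C2, at least 36.6-fold above NC1 and 3.18-fold above C2. Neither entered the main test, since the present flag was required at all stages. Of the 7 luteal markers tested, 5 were called higher at C1 than at NC1 (1.76% of all tested probes) and 0 lower. Against C2, 1 was called higher (22.2%) and 2 lower (25.4%). Prlr, Lhcgr and Ptgfr fell from C1 to C2, whereas Cyp11a1, Sfrp4 and Akr1c18 did not. Prlr is itself a two-step peak, and Lhcgr and Ptgfr were two-step peaks without the presence filter. That these 3 moved with the peaks is therefore no separate support. The part of luteal cells in the peaks was not tested.

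**Figure D3:**
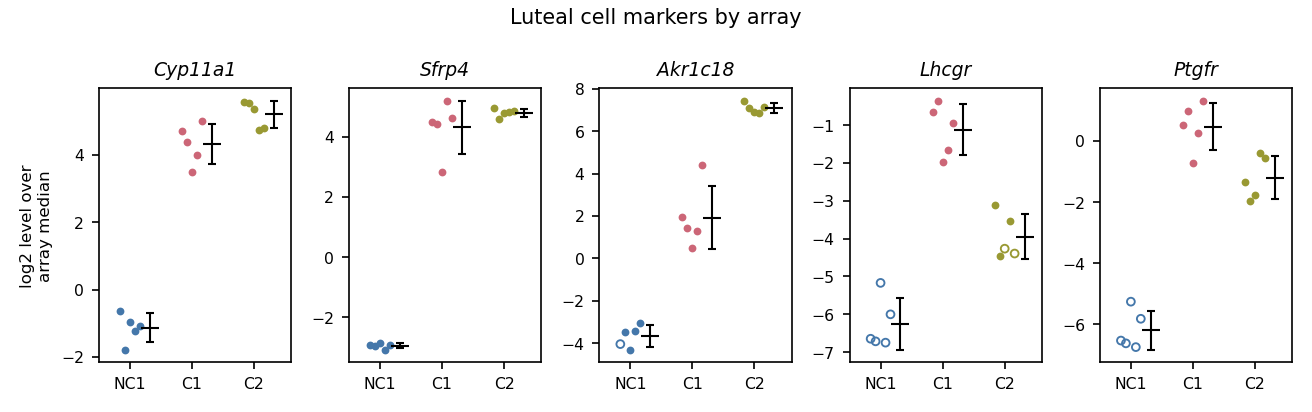
Level of 5 luteal cell markers on each array, as log2 intensity over the array median, by stage. Filled circles are arrays with the probe well above background, open circles are arrays without, and the black mark is the stage mean with its SD (n = 5). All 5 C1 arrays lie above all NC1 arrays in each panel. Lhcgr is higher at C1 than at C2, while Akr1c18 is higher at C2.

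Markers of other cell types were summed in the same unit. Theca and stroma markers (9 of 10 on the array) ranged from 14.5 to 60.3 at NC1, 12.6 to 19.2 at C1 and 0.887 to 1.19 at C2. Of these, 6 of 6 tested were called higher at C1 than at C2 (22.2% of all tested probes). Red blood cell markers (7 of 9) ranged from 73.7 to 439 at NC1, 10.6 to 43.7 at C1 and 9.97 to 25.4 at C2. Of 5 tested, limma called 4 lower at C1 than at NC1 (0.773% of all tested probes). The unmoderated model called 0, and 5 were lower at an unadjusted p under 0.05. Endothelial markers (10 of 10, Tek never above background) ranged from 1.35 to 2.24, 1.82 to 2.72 and 1.1 to 1.88, and C1 replicates 4 and 5 (2.26 and 2.72) lay above every array of the other stages. Plin4 is known from fat, and the adipocyte markers (10 of 10, with Lep and Cidec never above background) ranged from 0.903 to 2.52, 1.01 to 2.45 and 0.882 to 2.88. Leukocyte and macrophage markers (15 of 16) ranged from 3.84 to 6.99, 5.52 to 7.15 and 5.82 to 11.3, oviduct markers (8 of 8) from 6.31 to 7.87, 7.24 to 11.9 and 25.0 to 30.3, and oocyte markers (12 of 12) from 12.9 to 51.2, 13.1 to 41.1 and 0.741 to 17.4. For none of these 7 lists did all 5 C1 arrays lie beyond both other stages. Their part in single peaks or troughs was not tested.

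Cholesterol synthesis and uptake was the list whose members most often lay above both other stages at C1. Of 27 tested genes, 18 had the C1 mean above both others (17.8% of all tested probes) and 0 below both (25.3%), 14 were contrast peaks (4.63%), and 1, Sc5d, was a two-step peak (0.265%). The median difference of C1 was 1.07 from NC1, 0.32 from C2 and 0.83 from their average, against -0.03, -0.02 and -0.03 over all tested probes. Against NC1, 13 of the 27 were called higher (1.76% of all tested probes) and 0 lower (26 higher and 0 lower at an unadjusted p under 0.05), and against C2, 7 were called higher (22.2%) and 2 lower (25.4%). Sc5d, the sterol desaturase of a late step, stood at 1.86, 1.68, 2.62, 2.05 and 1.95 at NC1, 3.80, 3.41, 2.50, 3.38 and 3.21 at C1, and 2.28, 1.83, 1.93, 2.38 and 2.20 at C2. Only C1 replicate 3 fell among the other stages, below NC1 replicate 3.

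The other members of the cholesterol list divided by what followed C1. Hsd17b7, which acts on the sterol intermediate zymosterone, exceeded NC1 by 2.55 (adjusted p = 0.000649) and was 0.90 above C2 without passing the threshold (adjusted p = 0.0582), with C1 replicate 3 at -1.25 and the other C1 arrays at 1.34 to 1.51. Insig1, which holds the sterol-sensing complex in the endoplasmic reticulum, was higher than at C2 by 1.35 (adjusted p = 3.78e-05) and 0.61 above NC1 (adjusted p = 0.123). Fdps, a prenyl synthase early in the pathway, rose by 1.72 from NC1 (adjusted p = 4.92e-06) and was a further 1.89 higher at C2 (adjusted p = 5.35e-08).

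The lists that hold the leading peaks did not share their course. Over all tested probes, 1.76% were called higher and 0.773% lower than at NC1. Against C2 the shares were 22.2% higher and 25.4% lower, and 0.265% were two-step peaks. Of 20 tested genes of methionine, betaine and folate metabolism, Bhmt was the 1 called higher than at NC1, and Sardh, which degrades sarcosine, was called lower (C1 minus NC1 of -0.78, adjusted p = 0.00482). At an unadjusted p under 0.05, 4 were higher and 3 lower. The unmoderated model called 1 higher and 0 lower. Against C2, limma called 9 higher and 7 lower. The list's median difference was -0.03 from NC1 and 0.27 from C2. Cbs, which draws homocysteine away towards cysteine, differed by -0.10 from NC1 (adjusted p = 0.918) and exceeded C2 by 3.82 (adjusted p = 1.15e-08). Of 21 tested genes of lipid droplets and triglycerides, Plin4 and Mgll, a monoglyceride lipase, were called higher than at NC1, and 0 lower. The unmoderated model called 1 higher. Plin4 was the only two-step peak. Against C2, 7 of these lipid genes were called higher and 7 lower. Their median difference was 0.07 from NC1 and -0.47 from C2. Of 20 tested immediate early genes, Atf3 was the only two-step call. Dusp1, a phosphatase of mitogen-activated kinases, was the 1 other called against NC1 (1.26, adjusted p = 0.00946, limma). The unmoderated model called 0 of the 20 against NC1. Against C2, limma called 5 higher and 9 lower. The median difference of this list was 0.31 from NC1 and -0.50 from C2.

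Genes of granulosa identity and the cell cycle were called in the comparison with C2. Of 19 tested genes of granulosa identity and response to follicle-stimulating hormone, 0 were called between C1 and NC1 by limma or by the unmoderated model (1 was lower at an unadjusted p under 0.05) and 17 were higher at C1 than at C2 (22.2% of all tested probes), with median differences of -0.09 and 2.78. The 5 that counted as contrast peaks (4.63% of all tested probes), among them Fshr, Amhr2 and Cyp19a1, lay 0.07 to 0.43 above NC1 and were high at both prophase I stages. Of 23 tested cell cycle genes, 0 were called between C1 and NC1 by either model (0 at an unadjusted p under 0.05), 20 were higher than at C2 (22.2% of all) and 2 were contrast peaks (4.63% of all). Steroid hormone synthesis had 5 of 12 genes called higher than at NC1 (1.76% of all), 4 called higher (22.2% of all) and 4 lower (25.4% of all) than at C2, and no two-step call (0). The ovulatory list had 15 genes on the array, of which only 7 had the present flag at all stages and were tested. Of these, 2 were called higher than at NC1 (1.76% of all) and 4 lower than at C2 (25.4% of all). None (0) was called higher than at C2 by either model (0 at an unadjusted p under 0.05). Of 13 heat shock and unfolded protein genes, 0 were called against NC1 by either model and 1 was higher at an unadjusted p under 0.05. Against C2, 5 were called higher (22.2% of all) and 3 lower (25.4% of all). These lists hold 0 two-step troughs.

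**Figure D4:**
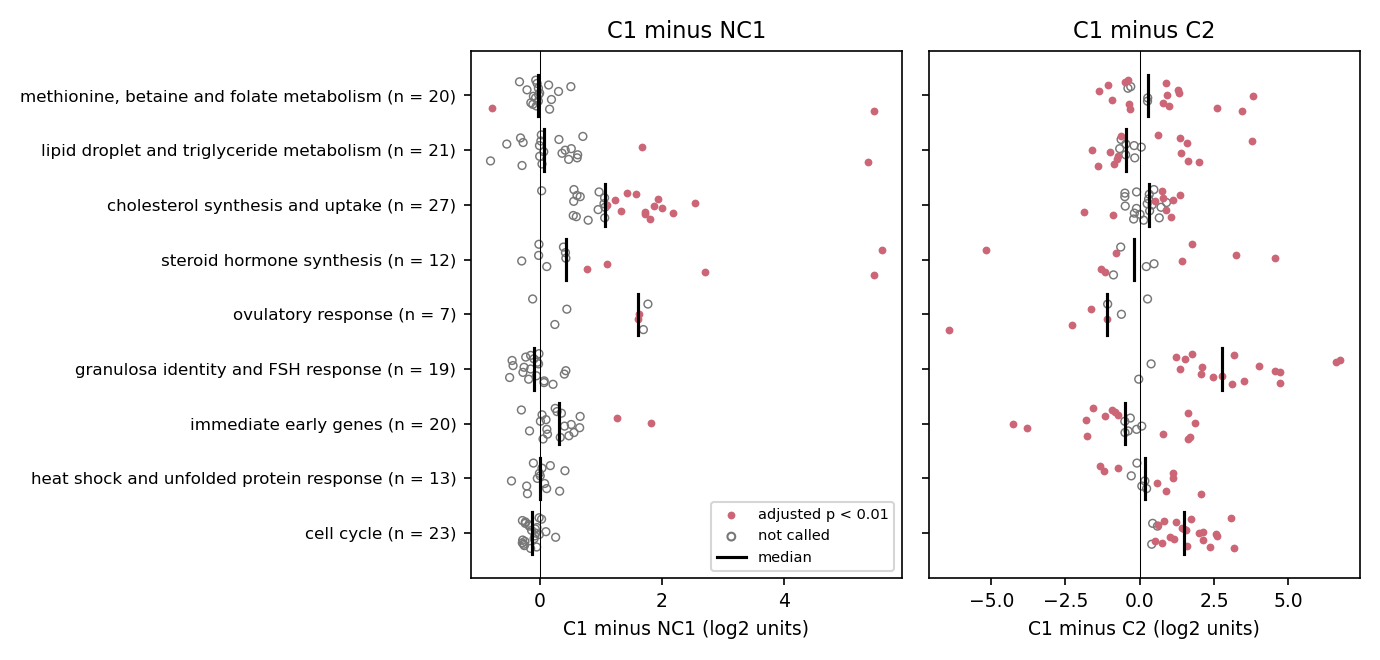
Each circle is 1 tested gene of a list, with its difference of C1 from NC1 (left) and from C2 (right) in log2 units. Filled circles passed the threshold (adjusted p under 0.01), open circles did not, and bars are list medians. Cholesterol genes lie to the right in the left panel (median 1.07) and around 0.32 in the right, and granulosa genes lie around -0.09 in the left panel and 2.78 in the right.

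Troughs were shallower than peaks and lay at lower SD. Rufy4, a protein with RUN and FYVE domains linked to autophagy, stood at -1.68, -1.78, -2.63, -2.21 and -1.99 at NC1, -3.48, -3.68, -2.81, -3.41 and -3.87 at C1, and -1.01, -0.92, -0.995, -1.25 and -1.39 at C2. It was above background on 4 of the 5 C1 arrays, and the stages did not overlap. C1 fell by 1.39 on the log2 scale from NC1 (SE 0.20, adjusted p = 0.000327) and C2 was higher than C1 by a larger step (C1 minus C2 of -2.34, adjusted p = 3.96e-08). Nell1, a secreted protein known from bone formation, stood at 0.12, 0.18, 0.48, -0.18 and 0.11 at NC1, -1.86, -1.08, -1.03, -1.21 and -0.67 at C1, and 0.08, 0.23, 0.31, 0.10 and 0.56 at C2. Its differences were -1.31 ± 0.18 from NC1 (adjusted p = 0.000265) and -1.43 from C2 (adjusted p = 4.34e-06), and NC1 and C2 were not called different (adjusted p = 0.604). These were the troughs that remained called in all 15 fits with 1 array left out and under all 6 other scalings, spike-in RNA included.

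Cytoskeleton and adhesion proteins followed. Map6, which stabilises microtubules, was at -1.29 ± 0.17 (SD) at NC1, -2.57 ± 0.32 at C1 and -1.42 ± 0.28 at C2. No C1 array reached the range of another stage. A second Map6 probe, above background on 3 of 5 C1 arrays and not tested, had means of -2.67, -3.52 and -3.29 and so lay only 0.23 lower at C1 than at C2 on the log2 scale. Tns1, which ties actin to integrins, stood at 0.18, 0.36, 0.33, 0.69 and 0.16 at NC1, -1.16, -1.31, -0.59, 0.02 and -0.85 at C1, and 0.47, 0.24, 0.69, 0.53 and 0.45 at C2, C1 replicate 4 being the nearest to the other stages. Its differences were -1.12 ± 0.20 and -1.25, and a second probe gave -0.86 and -1.45. Cdc42ep3, an effector of the GTPase Cdc42, differed from NC1 by -0.92 ± 0.17 (adjusted p = 0.00305, up to 0.247 over the alternatives) and from C2 by -1.50. Tpm1, a tropomyosin, gave -0.65 and -0.64 from NC1 and -1.28 and -1.32 from C2 at its probes.

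Proteins of the matrix and its processing were also among the troughs. P3h2, which hydroxylates collagen prolines, was at -2.07 ± 0.21 (SD) at NC1, -3.17 ± 0.39 at C1 and -1.95 ± 0.30 at C2. Prg4, or lubricin, differed from NC1 by -1.80 and from C2 by -0.90, and was the 1 trough with C2 called below NC1 (-0.90, adjusted p = 5.01e-05). Emilin2 and the laminin chain Lamb1 differed from NC1 by -0.84 and -0.66 and from C2 by -0.92 and -0.84. Ctsc, the lysosomal cathepsin C, differed by -1.01 ± 0.21 from NC1 (adjusted p = 0.00806) and by -1.77 from C2, and its first difference lost the call in 15 of 28 alternatives, with an adjusted p of up to 0.113.

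In some other troughs the fall from NC1 was small beside the later rise. Lrrfip1, a binding protein of nucleic acids, stood at -0.26, -0.39, -0.11, -0.35 and -0.63 at NC1, -1.46, -2.02, -1.32, -1.16 and -1.44 at C1, and 2.02, 1.88, 1.96, 1.77 and 2.22 at C2, with differences of -1.13 ± 0.15 and -3.45. A second tested Lrrfip1 probe, with differences of -0.83 from NC1 (adjusted p = 0.0544) and -2.31 from C2, was no two-step trough. Slc40a1, the iron exporter ferroportin, differed by -0.74 from NC1 and by -2.32 from C2. Ank, a pyrophosphate transporter, and Mical1, an actin oxidase, differed by -0.82 and -0.57 from NC1 and by -2.72 and -1.96 from C2. Of the 15 fits with 1 array left out, Slc40a1 was called in 3, Ank in 7 and Mical1 in 9. Hrc and Trim47 did not share this course. Hrc, a calcium-binding protein of the sarcoplasmic reticulum, differed by -1.07 ± 0.15 from NC1 and by -1.53 from C2. Trim47, a RING-finger protein, differed more from NC1 (-1.23 ± 0.17) than from C2 (-0.94). With spike-in scaling the difference from NC1 of Map6, Lrrfip1, Tns1, P3h2, Hrc, Ctsc, Trim47 and Cdc42ep3 missed the threshold, as did that of Trim47 from C2, although the sizes stayed close (Trim47 at -1.08 and -0.78, Ctsc at -0.85 and Tns1 at -0.97 from NC1). The trough count was 21 without NC1 replicate 5 and 19 without C1 replicate 1.

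**Figure D5:**
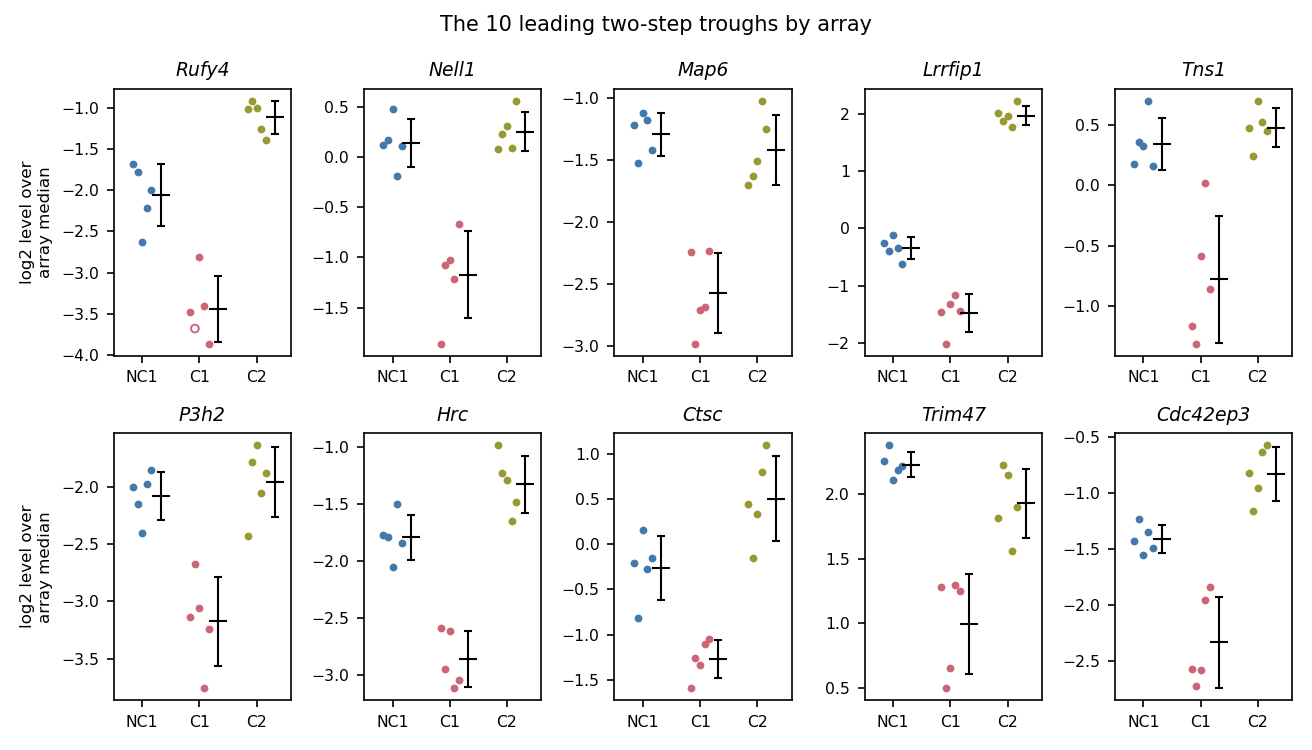
Level of the 10 leading two-step troughs on each array, as log2 intensity over the array median, by stage. Filled circles are arrays with the probe well above background, open circles are arrays without, and the black mark is the stage mean with its SD (n = 5). All C1 arrays lie below all NC1 and C2 arrays in each panel, and Lrrfip1 is also far higher at C2 than at NC1.

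The 5 C1 arrays did not contribute equally to the peaks. C1 replicate 1 was the highest C1 array in 28 of the 46 peak probes, and C1 replicate 3 was the lowest in 23 and C1 replicate 4 in 16. The median distance of an array beyond the nearer of the other stage means was 1.70 for C1 replicate 1, 1.31 for replicate 2, 0.94 for replicate 3, 0.95 for replicate 4 and 1.51 for replicate 5. In the troughs these distances were 0.67 to 0.81. Leaving out 1 array at a time gave 34 to 62 peaks, lowest without C1 replicate 1 and highest without C1 replicate 3. Tnfaip6, a matrix-binding protein of cumulus expansion, was at 2.71 in C1 replicate 4, at -3.77 to -2.90 in the other C1 arrays and at 3.75 to 4.78 at C2. Another Tnfaip6 probe was high in C1 replicates 3 and 4 (-1.63 and -1.07). Ptgs2 stood at -1.88 in C1 replicate 4 and at -6.72 to -5.57 in the other C1 arrays. Areg stood at -2.36 and at -7.15 to -5.66 in turn. Both were above background on 1 C1 array, 0 NC1 arrays and 5 C2 arrays, and were not tested. Without C1 replicate 4, 52 peaks and 35 troughs were called.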

How the data were processed

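RNA of cumulus cells from 5 pools of mice per stage was labelled with Cy3 and hybridised to 1-colour Agilent arrays carrying 44397 spots. The deposited scanner files hold intensity values from Feature Extraction, whose version is 10.7.1.1 in the headers and 10.5.1.1 in the labels, on a design annotated on mm9. The authors then took log2, scaled each array by its median and flagged present probes in GeneSpring, and deposited the log2 values of 20855 gene probes. The deposited log2 values differed from the log2 of the scanner intensity by an array constant (SD of the rest at most 0.00742).

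Probes with a present flag at all 3 stages (17342, of which 15858 had a gene symbol, 13692 named through their accession and 2166 through the table's symbol) were kept, and each array's median over them was subtracted. A single limma model (limma 3.58.1, R 4.3.3) of the 15 arrays gave the differences of C1 from NC1, from C2 and from the average of both, two-sided, with Benjamini-Hochberg adjustment and a threshold of 0.01. The fit was tested on simulated data. Genes named were the 10 two-step peaks and 10 two-step troughs with the largest smaller difference (probes with a symbol, 1 per gene), Bhmt and Plin4, up to 3 probes above background at C1 alone or missing there alone, list members called in both differences with up to 4 examples per list, and Cyp11a1, Akr1c18, Sfrp4, Ptgfr and Lhcgr. Tnfaip6, Ptgs2 and Areg were named for C1 replicate 4. Other genes were chosen after their values were seen. In gene lists each gene was represented by its brightest tested probe. Members and lists were chosen with earlier results of these data known. Bounds for probes not well above background used, per array, the dimmest signal seen well above background or the probe's own signal if higher. Precision is limited by having 5 arrays per stage, and p-values measure the spread between pools. Alternatives covered scaling, background correction, filters, blocks, weights, the model and the omission of each array. The normexp alternative used median spot and background signals, because the scanner files hold no mean signal.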

Additional observations from a re-analysis of the deposited data

Results flagged for a closer look

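In 84 groups of 5 arrays (28 genes), 5 groups had an end array whose gap to the nearest other array, divided by the range of the group, exceeded Dixon's critical value of 0.71. Chance alone gives about 1 such group in 20. Tnfaip6 stood at 2.71 in C1 replicate 4 and at -3.77 to -2.90 in the other C1 arrays. Oxtr stood at 1.62 in C2 replicate 1 and at 0.40 to 0.72 in the other C2 arrays. Prlr stood at -2.42 in C2 replicate 5 and at -1.98 to -1.81 in the other C2 arrays. Tmem178 stood at -1.72 in NC1 replicate 5 and at -3.02 to -2.66 in the other NC1 arrays. Wnt5a stood at -2.83 in NC1 replicate 1 and at -3.77 to -3.58 in the other NC1 arrays.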

How the results depend on the processing

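Of the 52 differences of named genes, 0 reversed under any alternative, 12 lost their call in at least 1 and 1 (Cyp11a1 against C2) gained one. Spike-in scaling gave 1144 contrast calls, 85 contrast troughs, 2 two-step troughs, and list medians of C1 minus the average of 0.27 for methionine and betaine genes (0.11 otherwise), 0.82 for steroid hormone synthesis (0.66) and 0.037 for adipocyte markers (-0.12), while the median over all probes moved alike, from -0.03 to 0.13. A minimum change of 2-fold in each difference gave 45 contrast peaks, 12 contrast troughs and 8 two-step troughs. Adjusting the larger p of both differences gave 27 two-step peaks and 20 troughs, fitting each difference on its own 2 stages gave 20 troughs, array weights gave 73 peaks, and dropping the presence filter gave 83 peaks. These alternatives change the scale, the criterion or the probes tested, and the cause of each shift was not tested.

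Omitting 1 array at a time gave 34 to 62 two-step peaks and 19 to 35 troughs, 2 to 6 probes seen at C1 alone, 0 to 2 missing there, and medians of -0.10 to 0.13 for heat shock genes and -0.54 to 0.10 for oviduct markers. Of the 46 peaks, 33 were called in all 15 such fits and 29 also under all 6 other scalings. Of the 33 troughs these numbers were 17 and 2. The replicate block gave 54 peaks (39 of them among the 46) and 26 troughs (24 among the 33). Deviations of samples with the same number correlated at 0.05 to 0.34 between NC1 and C1 (3 of 5 best with their own number), -0.17 to 0.21 between C1 and C2, and -0.24 to 0.00 between NC1 and C2. Not every pair exceeded 0.1 between any stages, and the labels state no shared source, so the number was not treated as a pairing. The slide block gave 37 peaks and 23 troughs. With normexp the bounds of Ces2a and Ces2c were 1.84 and 1.51 on the log2 scale.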

Other observations

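Without the presence filter, 40 further probes (37 named genes) were two-step peaks, 29 of them above background on all 5 C1 arrays. A further 5 probes (4 genes) were two-step troughs. All deposited probes had a present flag at 1 stage or more. A probe flagged at C1 alone thus entered because it was high there, and its peak form is no separate support. The genes named below were chosen after their values were seen. Sstr1, a somatostatin receptor, was above background on no NC1 array and on all C1 and C2 arrays, with C1 at least 16.6-fold above NC1 and 3.72-fold above C2. Onecut2, a homeodomain transcription factor, was above background on 2 NC1 arrays and on all C1 and C2 arrays, with C1 3.92-fold above C2. Cst13, another cystatin, was above background on all C1 arrays, 0 NC1 arrays and 1 C2 array, and C1 was at least 3.32-fold above NC1. Nos3 and Emcn, known from endothelium, were above background on 5 and 4 C1 arrays, 2 and 1 NC1 arrays and 0 C2 arrays, with C1 at least 2.59-fold and 2.35-fold above C2. Lox, which crosslinks collagen and elastin, was a trough at both its probes, above background on 1 of 5 C1 arrays at each and on all 5 C2 arrays.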
